A study of Mus musculus with 2 samples.

Results

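The data were single-cell RNA counts of 9 tight junction genes in mouse small intestinal organoids, which are three-dimensional cultures of intestinal epithelium. The genes were the claudins Cldn2, Cldn15, Cldn3, Cldn4, Cldn7 and Cldn23, the other membrane proteins Ocln and F11r, and the scaffold gene Tjp1. They were taken by name from a matrix of 31053 genes, where each had 1 row. There is 1 control library and 1 melatonin-treated library in the labels, and cells of 3 organoid lines were pooled for each at culture day 3. The labels give neither the strain nor the age of the mice, and no genetic change. Byte for byte, 3 of 3 deposited files of the control sample equal those of the melatonin sample, so there is a single matrix. Its barcodes end in 1 or 2, called set 1 and set 2 here. No label states which set was treated with melatonin, so no effect of melatonin is reported, and the direction of every ratio of set 2 over set 1 is arbitrary.

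A barcode was kept as a cell if it had 500 or more genes, 1000 or more UMIs (unique molecular identifiers, which count captured RNA molecules) and no more than 20% of its UMIs from mitochondrial genes. This left 4066 of 21806 barcodes, 2300 in set 1 and 1766 in set 2, with medians of 29872 and 28759 UMIs. Of all barcode sequences, 29 occurred in both sets, and 0 of those were among the kept cells. Levels are CPM, the UMIs of a gene per 1000000 UMIs of the summed cells. Each set is a single pool with no replicate, so there was no test, and the 95% intervals after the levels are exact Poisson intervals that cover counting error only. The assay reads the 3′ end of each RNA, so levels are compared between cells for one gene, not between genes.

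Tight junctions seal the space between epithelial cells near their apical edge. Claudins form the strands of the junction and set which ions pass. In intestine, claudin-2 and claudin-15 are known as claudins that form channels for small cations, while claudin-3 and claudin-4 are known as sealing claudins. Occludin, encoded by Ocln, and the adhesion protein JAM-A, encoded by F11r, lie in the same junction, and ZO-1, encoded by Tjp1, ties these membrane proteins to the actin cytoskeleton.

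Cells were sorted into classes by summed UMIs of marker genes. The classes were proliferating-like (1740 cells, with Ube2c and Cdk1 among the leading genes), stem-like (481, with Olfm4 and Lgr5), enterocyte-like (314, with Fabp1 and Apoa1), enteroendocrine-like (509, with Chga and Tph1), goblet or Paneth-like (44, with Fcgbp and Lyz1) and revival-like (71). The last class carries markers of the regenerative state known from injured intestine, with Anxa3 and Ly6a among its leading genes, which also included Msln and Nts. Another 796 cells passed no gate, and 111 passed 2 or more and were kept apart. The summed CPM of immune markers was 0.487 in set 1 and 0.489 in set 2, and 0 cells passed the immune gate or the mesenchymal gate, while 9 passed the tuft gate. Of 7344 genes with at least 10 CPM over all kept cells, the share past each fold is given beside the count of junction genes.

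Of the claudins, Cldn4 was past 2-fold higher and Cldn2 and Cldn15 past 2-fold lower in enteroendocrine-like cells. The promoters of these genes are shown so that the sequence before each start site can be set beside these levels. They are the 250 bases before the RefSeq start on the gene's own strand (build GRCm38.p6), and capitals mark letters that match a searched motif on either strand.
Cldn2: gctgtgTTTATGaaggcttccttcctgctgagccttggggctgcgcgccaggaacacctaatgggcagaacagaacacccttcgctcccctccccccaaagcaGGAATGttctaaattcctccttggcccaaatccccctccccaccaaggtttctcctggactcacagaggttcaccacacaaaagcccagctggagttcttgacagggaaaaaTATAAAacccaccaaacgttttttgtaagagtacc
Cldn15: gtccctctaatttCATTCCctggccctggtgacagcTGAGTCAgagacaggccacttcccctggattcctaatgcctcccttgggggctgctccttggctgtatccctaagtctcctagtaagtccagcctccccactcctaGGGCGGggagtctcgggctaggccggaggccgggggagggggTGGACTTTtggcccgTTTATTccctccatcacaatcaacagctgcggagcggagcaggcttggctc
Cldn4: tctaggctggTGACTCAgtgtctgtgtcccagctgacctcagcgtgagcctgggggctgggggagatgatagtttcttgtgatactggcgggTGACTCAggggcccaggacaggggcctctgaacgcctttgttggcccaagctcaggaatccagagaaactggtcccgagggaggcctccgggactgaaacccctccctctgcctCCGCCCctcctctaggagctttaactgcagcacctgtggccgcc
Cldn2 is on the plus strand at chrX:139800558-139800807, Cldn15 on the plus strand at chr5:136967619-136967868, and Cldn4 on the minus strand at chr5:134946935-134947184. All end at the base before the listed start.

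Searched for were letters known from the binding sites of intestinal and general factors. TTTATG, or TTTATT, stands for CDX, GGAATG stands for TEAD (the DNA-binding partners of YAP), and TGANTCA stands for AP-1. AAAGTCCA stands for HNF4, AACNGGTT stands for GRHL, TATAAA is the TATA box, GGGCGG is the GC box and CCAAT is the CCAAT box. The Cldn2 window held the first CDX motif, the TEAD motif and, 35 bases before the start, the TATA box. The Cldn15 window held the second CDX motif, the TEAD motif in reverse complement, the AP-1 motif, the GC box and, 66 bases before the start, the HNF4 motif in reverse complement. The Cldn4 window held the AP-1 motif at 2 places and the GC box in reverse complement. No letters of different motifs overlapped in these 3 windows. Of 32851 promoter windows of this length in the table, 10.8% held the first CDX motif, 18.1% the second, 12.6% the TEAD motif, 6.75% the AP-1 motif, 1.01% the HNF4 motif, 12.4% the TATA box and 32.7% the GC box. The table matched 8 of the 9 genes with 10 windows, Cldn23 not being among them. Among those 10 windows, the AP-1 motif was also in that of F11r, the TEAD motif in 1 of the Cldn7 windows, and the GC box in 8. The GRHL motif was in 0 of the 10, against 1.79% of all windows, and the CCAAT box was in that of F11r and in 1 of the Ocln windows, against 33.8%. These are letter matches and no measurement of binding.

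Cldn4 was high in enteroendocrine-like cells, the hormone-producing cells of the epithelium, and in revival-like cells, and lower in the other classes. In enteroendocrine-like cells its level was 307 CPM (289 to 326) in set 1 against 273 CPM (257 to 289.6) in set 2. In proliferating-like cells it was 30.5 CPM (28.7 to 32.3) in set 1 against 43.2 CPM (40.4 to 46.1) in set 2. The intervals of these classes did not overlap in either set. Stem-like cells had 38.0 CPM in each set, and enterocyte-like cells had 51.2 and 57.8 CPM. In goblet or Paneth-like cells the sets lay apart at 26.7 and 100.3 CPM, with 29 and 15 cells. The log2 ratio of enteroendocrine-like cells to all other kept cells of their set, on CPM plus 1, was 2.85 in set 1 and 1.95 in set 2. These cells held 5.85% and 7.98% of all UMIs in the sets but 31.3% and 25.4% of the Cldn4 UMIs.

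**Figure D1:**
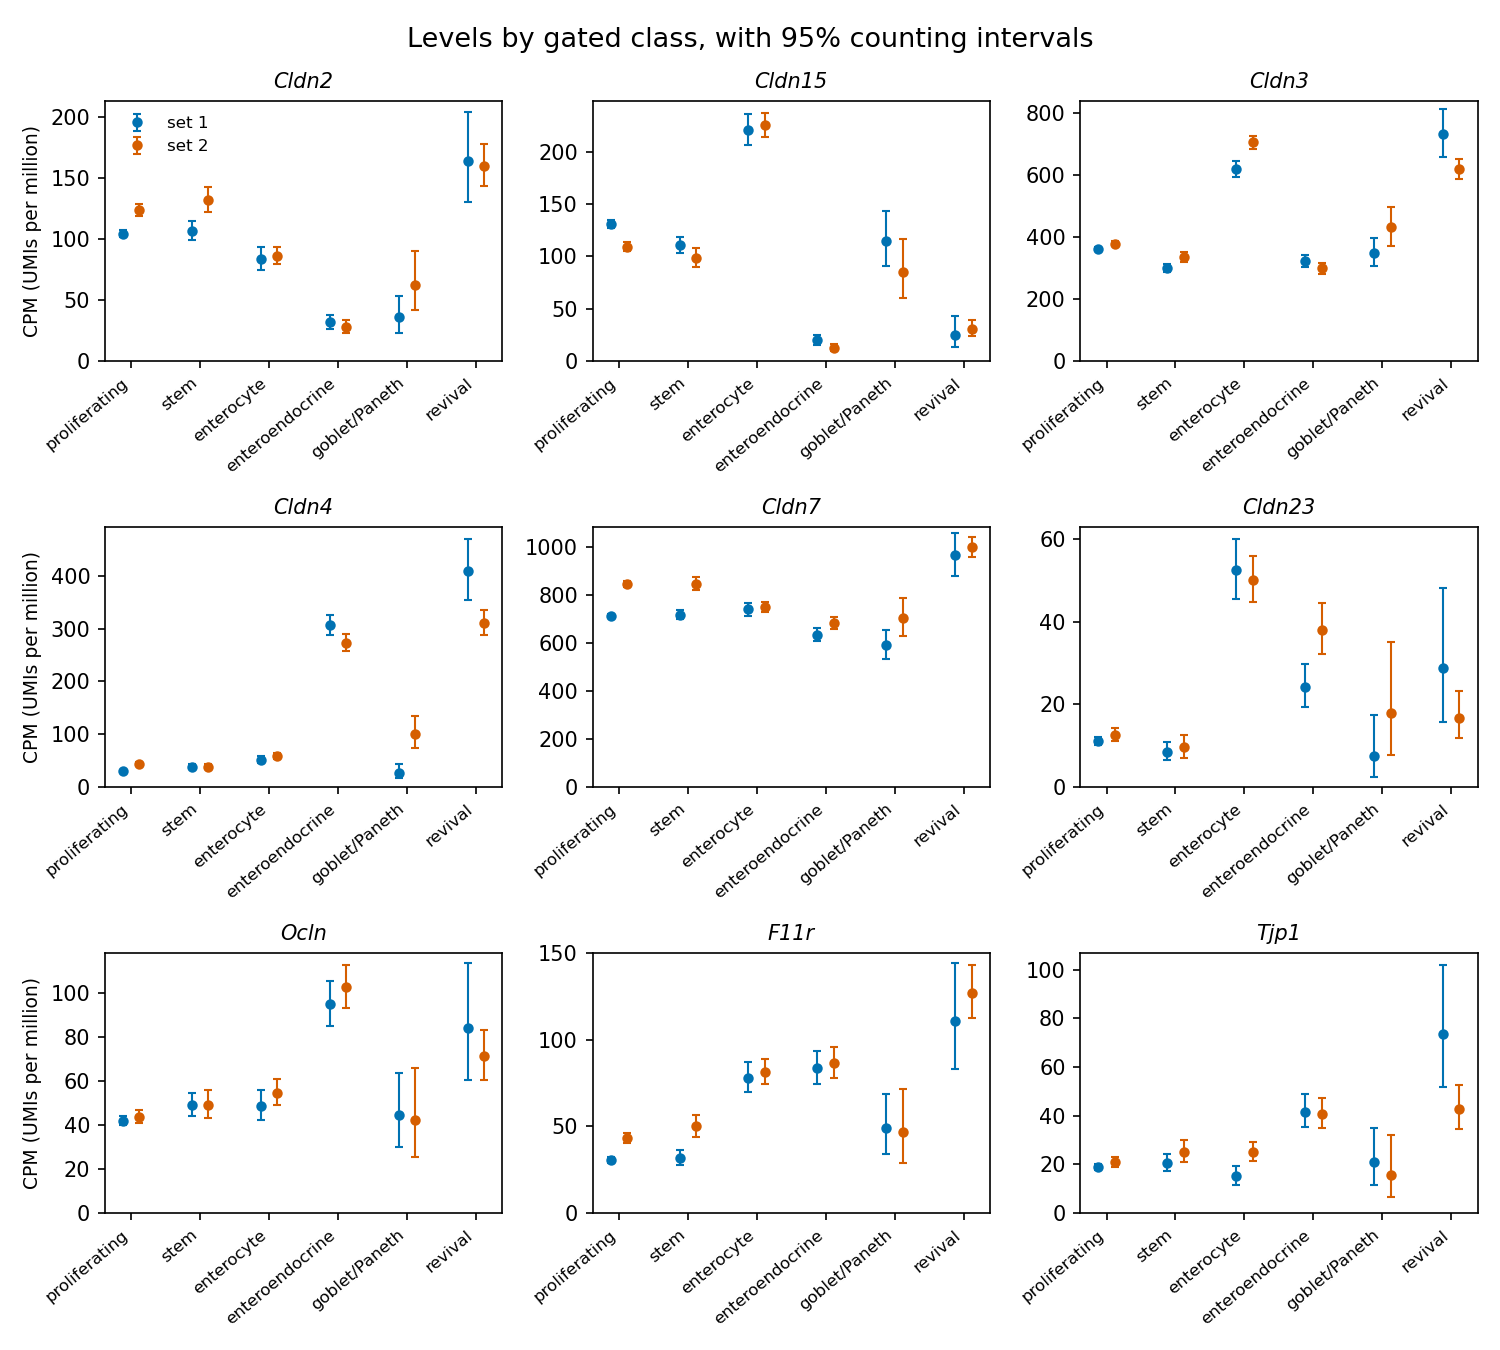
Level of each of the 9 genes (y axis, CPM, from 0, with its own scale in each panel) in 6 gated classes (x axis) in barcode set 1 (blue) and set 2 (orange). Points are summed levels and bars are 95% Poisson counting intervals. Cldn4 is at 307 and 273 CPM in enteroendocrine-like cells and at most at 57.8 CPM in proliferating-like, stem-like and enterocyte-like cells, while Cldn15 is at 19.4 and 12.01 CPM in enteroendocrine-like cells and at 221 and 225 CPM in enterocyte-like cells.

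The share of cells with a Cldn4 UMI was also higher in enteroendocrine-like than in proliferating-like cells. Enteroendocrine-like cells had medians of 14052 and 14452 UMIs and proliferating-like cells of 35998 and 38264, so each cell was thinned to 2000 UMIs and the expected share computed. At that depth 40.4% of enteroendocrine-like cells of set 1 had a Cldn4 UMI (exact binomial interval 34.3% to 47.0%) and 37.7% of set 2 (31.7% to 43.9%). The same share was 5.91% and 7.75% of proliferating-like cells. Without thinning the shares were 82.3% and 78.9% of enteroendocrine-like cells against 40.5% and 47.0% of proliferating-like cells. Free RNA in droplets can give a UMI in a cell that does not express a gene. As a gauge, Chgb, a granule protein gene of enteroendocrine cells, had a level in proliferating-like cells that was 0.108% and 0.153% of its level in enteroendocrine-like cells. For Cldn4 that figure was 9.92% and 15.8%. Chgb is a marker of the enteroendocrine gate, which sets its level in other classes in part, so the part of free RNA in the Cldn4 share was not settled by it.

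Of the 9 genes, 2 were at least 2-fold higher in enteroendocrine-like cells than in all other cells in both sets, Cldn4 and Ocln, where 17.2% of the 7344 genes were. Another 2 were at least 2-fold lower in both sets, Cldn2 and Cldn15, where 11.1% of genes were. The median log2 ratio over the 9 genes was 0.75 in set 1 and 0.61 in set 2, and over all 7344 genes it was 0.26 and 0.16. Large shares of all genes differed in these cells, so the counts alone do not set the junction genes apart.

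Cldn15 was lowest in enteroendocrine-like cells. Its level there was 19.4 CPM (15.1 to 24.6) in set 1 against 12.01 CPM (8.89 to 15.9) in set 2, and the log2 ratios to all other cells were -2.70 and -3.16. Without the top 5% of doublet scores they were -3.51 and -3.64, and with Leiden clusters -3.29 and -3.53. With a pseudocount of 10 CPM they were -2.27 and -2.51. Revival-like cells had 24.6 CPM (12.7 to 43.0) and 30.3 CPM (23.4 to 38.6), so in set 1 the intervals of these classes overlapped and in set 2 they did not. In set 1 stem-like (111 CPM), goblet or Paneth-like (114 CPM) and proliferating-like cells (131 CPM) followed. In set 2 the order was goblet or Paneth-like (84.7 CPM), stem-like (98.5 CPM) and proliferating-like (109 CPM), and in both sets each of these classes overlapped its neighbour. Enterocyte-like cells were at the top with 221 CPM (207 to 236) and 225 CPM (214 to 237), beyond all other classes in both sets.

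At 2000 UMIs per cell, 2.51% of enteroendocrine-like cells of set 1 and 1.88% of set 2 had a Cldn15 UMI, against 35.5% and 35.4% of enterocyte-like cells. Without thinning the shares were 15.7% and 13.8% against 91.5% and 94.6%. In enteroendocrine-like cells Cldn15 stood at 8.79% and 5.33% of its level in enterocyte-like cells. The same figure was 0.402% and 0.360% for Fabp1 and 3.82% and 2.30% for Rbp2. Both are markers of the enterocyte gate, and cells passing this gate and the enteroendocrine gate were kept apart, so their low figures are in part set by the gates and are no measure of free RNA alone. Leaving out the top 5% of doublet scores lowered the log2 ratios of Cldn15, as given above. The part of free RNA and of any remaining doublets in the Cldn15 level was not tested. Of the Cldn15 UMIs in enteroendocrine-like cells, 32.9% and 32.7% came from 3 cells in each set.

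Cldn2 also was low in enteroendocrine-like cells, at 31.4 CPM (25.9 to 37.7) and 27.7 CPM (22.8 to 33.3). The log2 ratios to all other cells were -1.64 and -2.08. Summed over cells, revival-like cells had the highest levels, 164 CPM (129.995 to 204) in set 1 against 160.1 CPM (144 to 178) in set 2. In set 1, 76.2% of those Cldn2 UMIs came from 3 cells, and in set 2 22.7% did. The median revival-like cell of set 1 had 66.3 CPM, below the 77.7 CPM of the median stem-like and the 81.2 CPM of the median proliferating-like cell, while in set 2 it had 127 CPM against 111 and 96.9 CPM. Stem-like cells followed with 106 CPM (99.1 to 114) and 132 CPM (122 to 142), then proliferating-like cells with 104 CPM (101 to 108) and 124 CPM (119 to 128), and these neighbours overlapped in both sets. Enterocyte-like cells had 83.5 and 86.2 CPM, below proliferating-like cells without overlap. Goblet or Paneth-like cells had 35.6 CPM (22.8 to 53.0) and 62.4 CPM (41.5 to 90.2).

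Cldn2 and Cldn15, both channel-forming, thus shared low levels in enteroendocrine-like cells and parted in enterocyte-like cells and, in their summed levels, in revival-like cells. In revival-like cells Cldn2 had log2 ratios of 0.78 and 0.52 to all other cells and Cldn15 of -2.31 and -1.84. The Cldn15 level in set 1 came from 12 UMIs, 83.3% of them in 3 cells, and its ratio ranged from -4.25 with Leiden clusters to -1.25 with lower gate thresholds. In enterocyte-like cells Cldn2 had -0.21 and -0.44 and Cldn15 0.90 and 1.30.

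**Figure D2:**
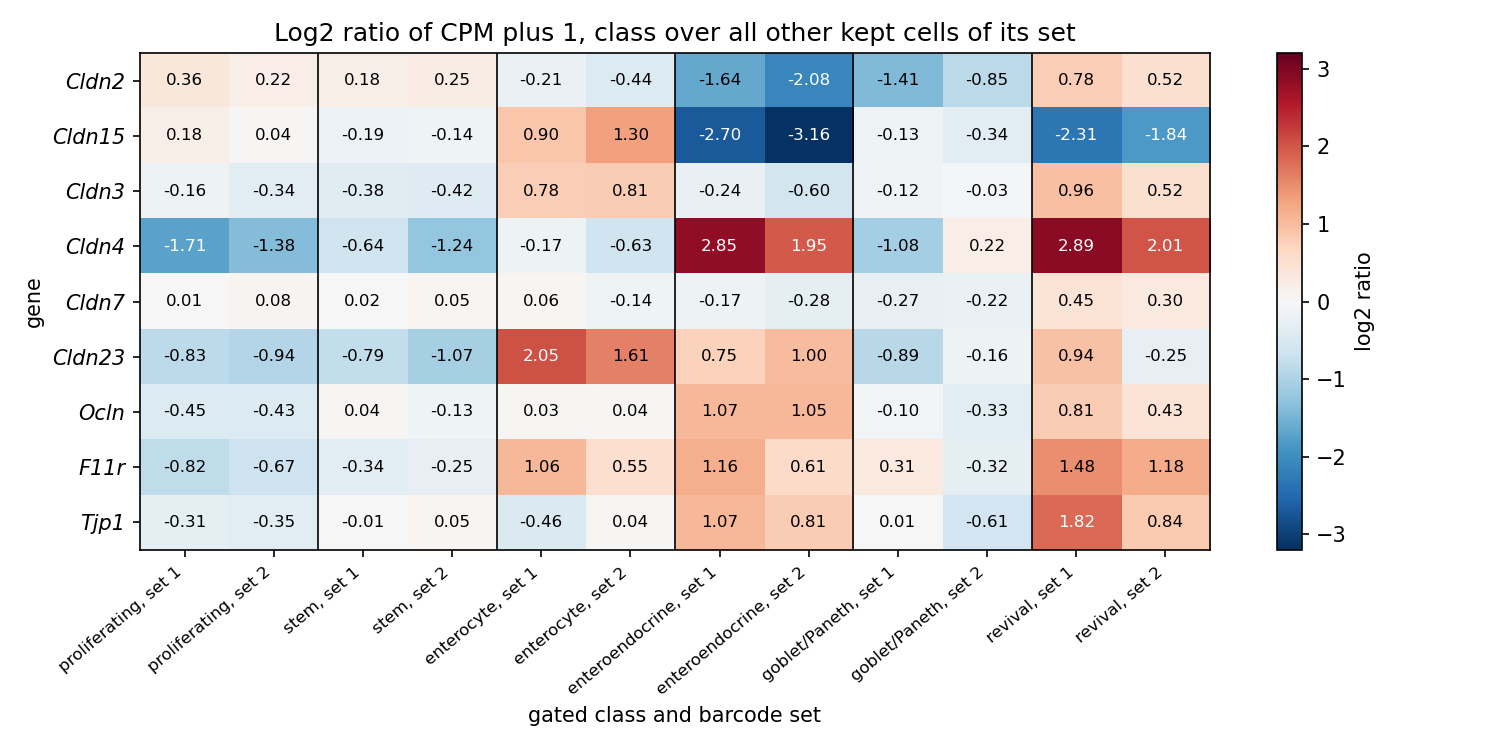
Log2 ratio of CPM plus 1 of each gene (rows) in each of 6 gated classes over all other kept cells of the same set (columns, set 1 and set 2 side by side), printed in each field; red is higher and blue is lower in the class. Cldn4 is red and Cldn15 blue in the enteroendocrine-like and revival-like columns of both sets, and the highest ratios of Cldn23, 2.05 and 1.61, are in the enterocyte-like columns.

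Cldn3 was highest in enterocyte-like and revival-like cells. Enterocyte-like cells had 618 CPM (594 to 643) and 705 CPM (684 to 725), and revival-like cells 732 CPM (658 to 812) and 618 CPM (585 to 652), so the order of the pair turned between the sets. Goblet or Paneth-like cells had 347 and 430.1 CPM, and proliferating-like cells 361 and 378 CPM. Stem-like cells had 299 CPM (286 to 311) and 335 CPM (319 to 352), and enteroendocrine-like cells 321 CPM (303 to 341) and 298 CPM (281 to 315). The last pair overlapped in set 1 and not in set 2. In RefSeq order Cldn3 lies next to Cldn4, and the profiles of these neighbours differed most in enteroendocrine-like cells, where Cldn3 had log2 ratios of -0.24 and -0.60 and Cldn4 of 2.85 and 1.95. The 3′ end of Cldn3 overlaps Wbscr25 on the other strand in GENCODE vM21, and how the submitters' counting handled strand is not given in the sources used here.

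Cldn7, a claudin also found along the lateral membrane, varied least across the classes. Its lowest level was 591 CPM in set 1 and 683 CPM in set 2, in goblet or Paneth-like and enteroendocrine-like cells, and its highest was 965 and 999 CPM in revival-like cells. In set 1, 53.5% of those UMIs came from 3 of the 22 cells, and the median revival-like cell had 693 CPM, beside 683 CPM in the median proliferating-like cell. Between these, stem-like cells had 718 and 846 CPM, proliferating-like cells 712 and 846 CPM, and enterocyte-like cells 739 and 749.6 CPM. In set 1 these classes overlapped, and in set 2 enterocyte-like cells were below stem-like and proliferating-like cells without overlap. Every log2 ratio of Cldn7 to all other cells lay between -0.28 and 0.45.

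Cldn23 was the 1 junction gene at least 2-fold higher in enterocyte-like cells in both sets, where 5.49% of genes were. Its level there was 52.5 CPM (45.6 to 60.1) and 50.02 CPM (44.7 to 55.8), with log2 ratios of 2.05 and 1.61. None of the 9 was at least 2-fold lower in these cells, against 11% of genes. Stem-like cells had the lowest Cldn23 level of the classes in set 2 at 9.51 CPM, and in set 1 they had 8.49 CPM beside 7.43 CPM in goblet or Paneth-like cells, from 5 UMIs. Enteroendocrine-like cells had 24.2 CPM (19.3 to 29.8) and 38.0 CPM (32.3 to 44.5), and revival-like cells had 28.7 CPM (15.7 to 48.1) and 16.8 CPM (11.7 to 23.2). Thinned to 2000 UMIs, 9.33% and 9.67% of enterocyte-like cells had a Cldn23 UMI, against 2.32% and 2.66% of proliferating-like cells. Enterocyte-like cells also had the higher mitochondrial share, with medians of 13.2% and 14.0% against 9.10% and 8.65% in proliferating-like cells. With a mitochondrial limit of 10%, which left 29 enterocyte-like cells in each set, the Cldn23 log2 ratios were 1.57 and 1.11. Beyond this alternative, the part of mitochondrial share in the result was not tested.

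Ocln reached 94.9 CPM (85.1 to 106) and 103 CPM (93.1 to 113) in enteroendocrine-like cells. Revival-like cells followed with 84.0 CPM (60.3 to 114) and 71.2 CPM (60.4 to 83.4), overlapping them in set 1 and not in set 2. The remaining 4 classes lay close together, from 41.9 to 49.0 CPM in set 1 and from 42.3 to 54.8 CPM in set 2. The log2 ratios of Ocln in enteroendocrine-like cells, 1.07 and 1.05, were just past the 2-fold line, and with a pseudocount of 10 CPM they were 0.94 and 0.93, below it.

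F11r was high in 3 classes. Revival-like cells had 111 CPM (83.1 to 144) and 127 CPM (112 to 143), enteroendocrine-like cells 83.6 CPM (74.4 to 93.6) and 86.5 CPM (77.7 to 96.1), and enterocyte-like cells 78.0 CPM (69.5 to 87.1) and 81.4 CPM (74.5 to 88.8). The last pair overlapped in both sets, and revival-like cells overlapped enteroendocrine-like cells in set 1 and not in set 2. Proliferating-like cells had 30.5 and 43.1 CPM, stem-like cells 31.9 and 49.97 CPM, and goblet or Paneth-like cells 49.0 and 46.8 CPM. Of the F11r UMIs in revival-like cells, 46.3% and 39.9% came from 3 cells in each set. The median revival-like cell had 132 CPM in set 1 and 72.6 CPM in set 2. The median enteroendocrine-like cell had 68.7 and 67.5 CPM and the median enterocyte-like cell 60.3 and 74.2 CPM.

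Tjp1 was highest in revival-like cells, with 73.8 CPM (51.7 to 102) and 42.8 CPM (34.5 to 52.5), and next in enteroendocrine-like cells, with 41.6 CPM (35.2 to 48.9) and 40.7 CPM (34.7 to 47.4). In set 2 these overlapped. All other classes had between 14.99 and 25.1 CPM. The revival-like levels came from 36 and 92 UMIs, 55.6% and 39.1% of them in 3 cells. The median revival-like cell had 23.7 and 25.6 CPM of Tjp1, where the median enteroendocrine-like cell had 0 in each set. Tjp1 overlaps the unclassified transcripts Gm44792 and Gm44794 on its own strand in GENCODE vM21, so reads could be shared with them.

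In revival-like cells, 2 of the 9 genes were at least 2-fold higher in both sets, Cldn4 and F11r, where 2.25% of genes were, and Cldn15 was lower, where 3.15% of genes were. Cldn4 had 409.9 CPM (355 to 471) in set 1 against 310.5 CPM (287 to 335) in set 2. The log2 ratios to all other cells were 2.89 and 2.01 for Cldn4 and 1.48 and 1.18 for F11r. With lower gate thresholds, which took in 119 cells, F11r had 1.01 and 0.77 and Cldn15 -1.25 and -0.99, and Cldn4 alone stayed past 2-fold in both sets with 2.42 and 1.55. The median log2 ratio over the 9 genes was 0.94 and 0.52, against -0.01 and 0.02 over all genes. The class had 22 cells in set 1 and 49 in set 2, and 3 cells held 37.5% and 54.6% of its Cldn4 UMIs. The median cell still had 329.7 and 131 CPM of Cldn4, where the median proliferating-like cell had 0 in each set. Median depth in this class was 11307 UMIs in set 1 and 40145 in set 2. At 2000 UMIs per cell, 58.1% (36.1% to 80.9%) and 29.5% (17.0% to 44.1%) had a Cldn4 UMI.

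Other classes held few junction genes past the fold. In proliferating-like cells 0 of 9 were at least 2-fold higher, against 0.613% of genes, and Cldn4 was lower with log2 ratios of -1.71 and -1.38, against 4.19% of genes. With cells classed by Leiden clusters those ratios were 0.086 and -0.52, and with lower gate thresholds -0.80 and -0.76, so this call depended on how the class was drawn. The cells it was compared with included the enteroendocrine-like and revival-like cells. In stem-like cells 0 of 9 were higher, against 0.0545% of genes, and 0 were lower, against 2.75%. In goblet or Paneth-like cells 0 were higher, against 1.1%, and 0 were lower, against 3.64%.

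Within enteroendocrine-like cells, Cldn4 and Cldn3 differed between groups of cells split by marker genes. The cells were split, after their levels had been seen, into those with Neurog3, the transcription factor gene of endocrine progenitors, then those with Tph1, which encodes the enzyme that begins serotonin synthesis, then those high in the peptide hormone genes Cck, Gcg, Sct and Sst, and the remainder. The Neurog3 group was taken first and also held Tph1, at 1448 and 1829 CPM against 1422 and 2018 CPM in the group called Tph1 cells, so the split between them is not one by Tph1 level. Cldn4 was highest in Tph1 cells, at 419.6 CPM (386 to 455) in 94 cells of set 1 and 407 CPM (377 to 439.7) in 102 cells of set 2. It was lower in Neurog3 cells, at 274 CPM (245 to 306) and 295 CPM (258 to 335), and lowest in peptide hormone cells, at 179.5 CPM (140.5 to 226) in 23 cells and 99.2 CPM (82.3 to 119) in 64 cells. The remaining cells had 208 CPM (175 to 246) and 226 CPM (184 to 275). Tph1 cells overlapped none of these groups in either set.

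Cldn3 was likewise highest in Tph1 cells, at 461 CPM (426 to 499) and 380.5 CPM (351 to 412). Peptide hormone cells had 187 CPM (147 to 234) and 190.2 CPM (167 to 216), Neurog3 cells 203 CPM (178 to 230.4) and 284 CPM (248 to 323), and the remaining cells 325 CPM (282 to 371) and 320.3 CPM (269.9 to 377). In set 2 the interval of the remaining cells overlapped that of Tph1 cells. Cldn7 did not follow this pattern, with levels from 586 to 650.1 CPM in set 1 and from 635 to 730.1 CPM in set 2. Cldn15 was at 14.4 and 7.43 CPM in Neurog3 cells, 11.7 and 13.1 CPM in Tph1 cells, 17.5 and 5.74 CPM in peptide hormone cells, and 45.9 and 33.6 CPM in the remaining cells, where 3 cells held 73.3% and 66.7% of its UMIs. Chgb was itself at 57255 and 62530.0 CPM in Tph1 cells against 6424 and 10726 CPM in peptide hormone cells. Median depth was 14211 and 14356 UMIs in Tph1 cells and 18007 and 20418 in peptide hormone cells, and its part in the result was not tested.

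**Figure D3:**
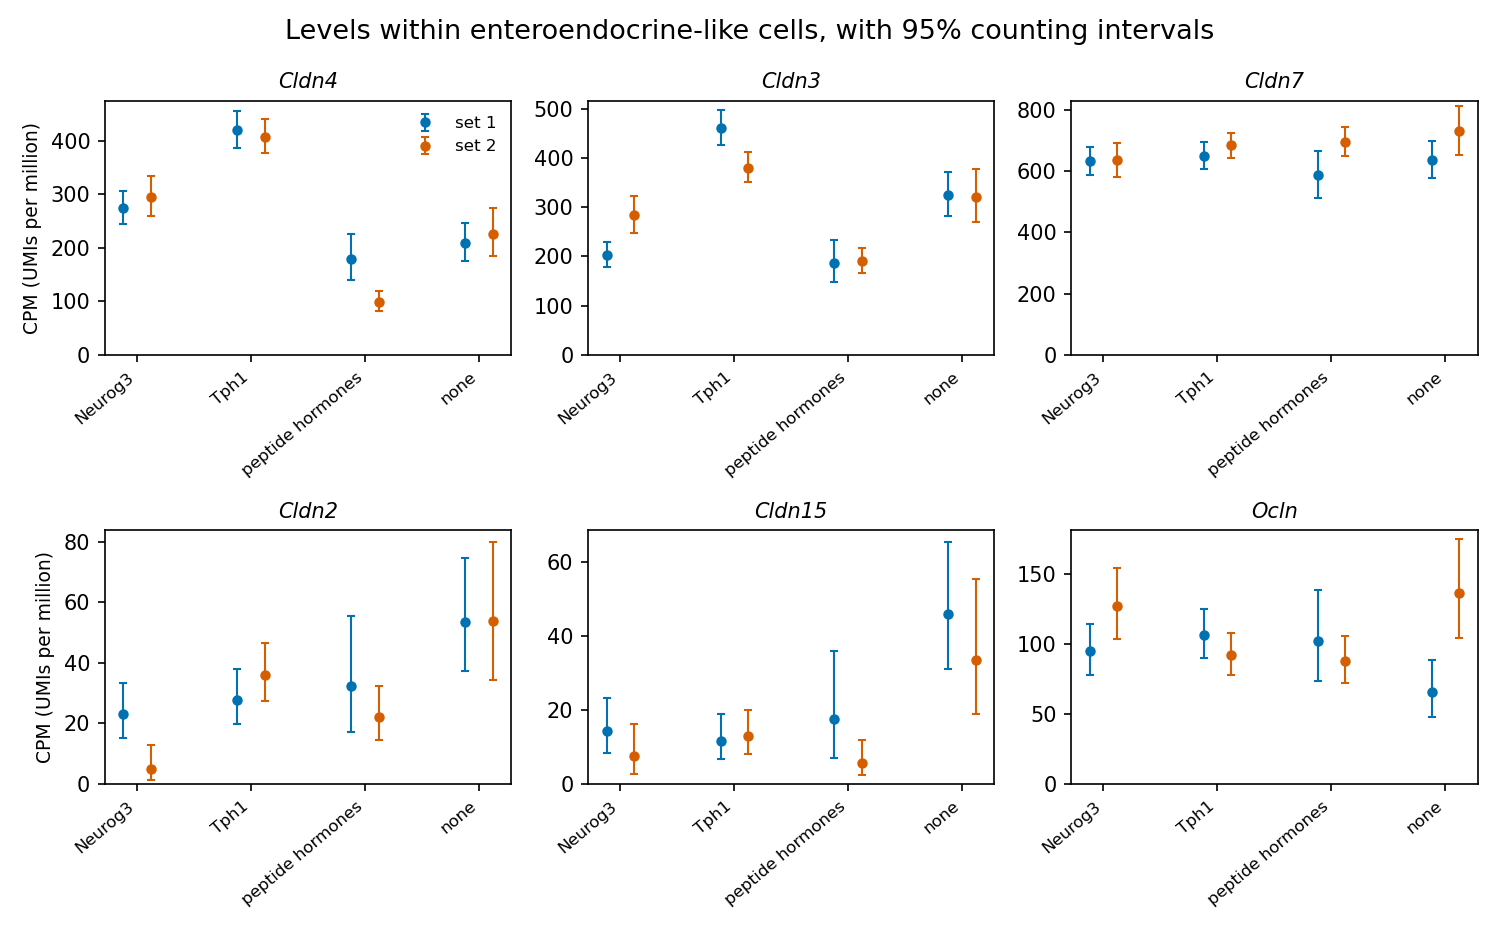
Levels of 6 junction genes (y axis, CPM from 0, its own scale in each panel) in enteroendocrine-like cells split by Neurog3, Tph1, peptide hormone genes or none of these (x axis), in set 1 (blue) and set 2 (orange) with 95% Poisson counting intervals. Cldn4 and Cldn3 are highest in Tph1 cells of both sets, Cldn7 is nearly level, and Cldn2 and Cldn15 are at most at 53.8 CPM in every group.

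Along the path from crypt to enterocyte, Cldn3, Cldn15, Cldn23 and F11r were higher at the enterocyte end in both sets without overlap of the intervals. The 3322 cells in no secretory, revival or tuft gate were ordered by enterocyte over stem markers and cut into 5 bins. The last bin was not alike in the sets. Its median enterocyte marker sum was 53.8 UMIs per 10000 in set 1, below the enterocyte gate, and 295.8 in set 2. At least 2000 UMIs were found in 270 of its 397 cells in set 1 and in 244 of 267 in set 2. Ratios between the ends are therefore not like for like between the sets. Cldn23 was at 10.7 CPM (8.09 to 13.8) in the first bin and 35.9 CPM (31.8 to 40.3) in the last in set 1, and in set 2 these ends had 10.4 CPM (8.71 to 12.3) and 45.1 CPM (40.6 to 49.9). It was the 1 gene of the 9 at least 2-fold higher in both sets between these ends, where 5.16% of genes were, with log2 ratios of 1.66 and 2.02. With a mitochondrial limit of 10% they were 0.58 and 1.29, and with CPM averaged over cells 0.92 and 1.86, so the call in set 1 was lost. None of the 9 was lower, against 2.9% of genes.

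Cldn15 went from 106 to 187 CPM in set 1 and from 88.6 to 203 CPM in set 2, and was past 2-fold in set 2 with a log2 ratio of 1.19 but not in set 1 with 0.81. Cldn3 went from 291 to 532 CPM and from 337 to 661 CPM, and was higher in each bin than in the one before in both sets. F11r stayed between 28.9 and 34.0 CPM in bins 1 to 4 of set 1 and between 43.3 and 48.2 CPM in set 2, and had 59.0 and 74.8 CPM in bin 5. Cldn23 had at most 12.3 and 14.3 CPM before bin 5.

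Cldn2 had 99.6 CPM in the first bin and 89.4 CPM in the last in set 1, where the intervals overlapped, and 129.8 and 93.7 CPM in set 2, where they did not. Cldn7 had 737 and 719 CPM in set 1, and 859 and 753 CPM in set 2, where it was lower at the enterocyte end without overlap. Ocln had 49.6 and 45.6 CPM in set 1 and 45.9 and 53.6 CPM in set 2, and Tjp1 had 20.03 and 18.4 CPM and 22.7 and 23.9 CPM. Cldn4 had 46.3 and 54.4 CPM in set 1, above all 3 bins between them, and 47.9 and 61.2 CPM in set 2. The last bin of set 1 had a median of 20950 UMIs and those before it had 23630 to 35954, and in set 2 bins 1 and 5 had 28729 and 33302.

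**Figure D4:**
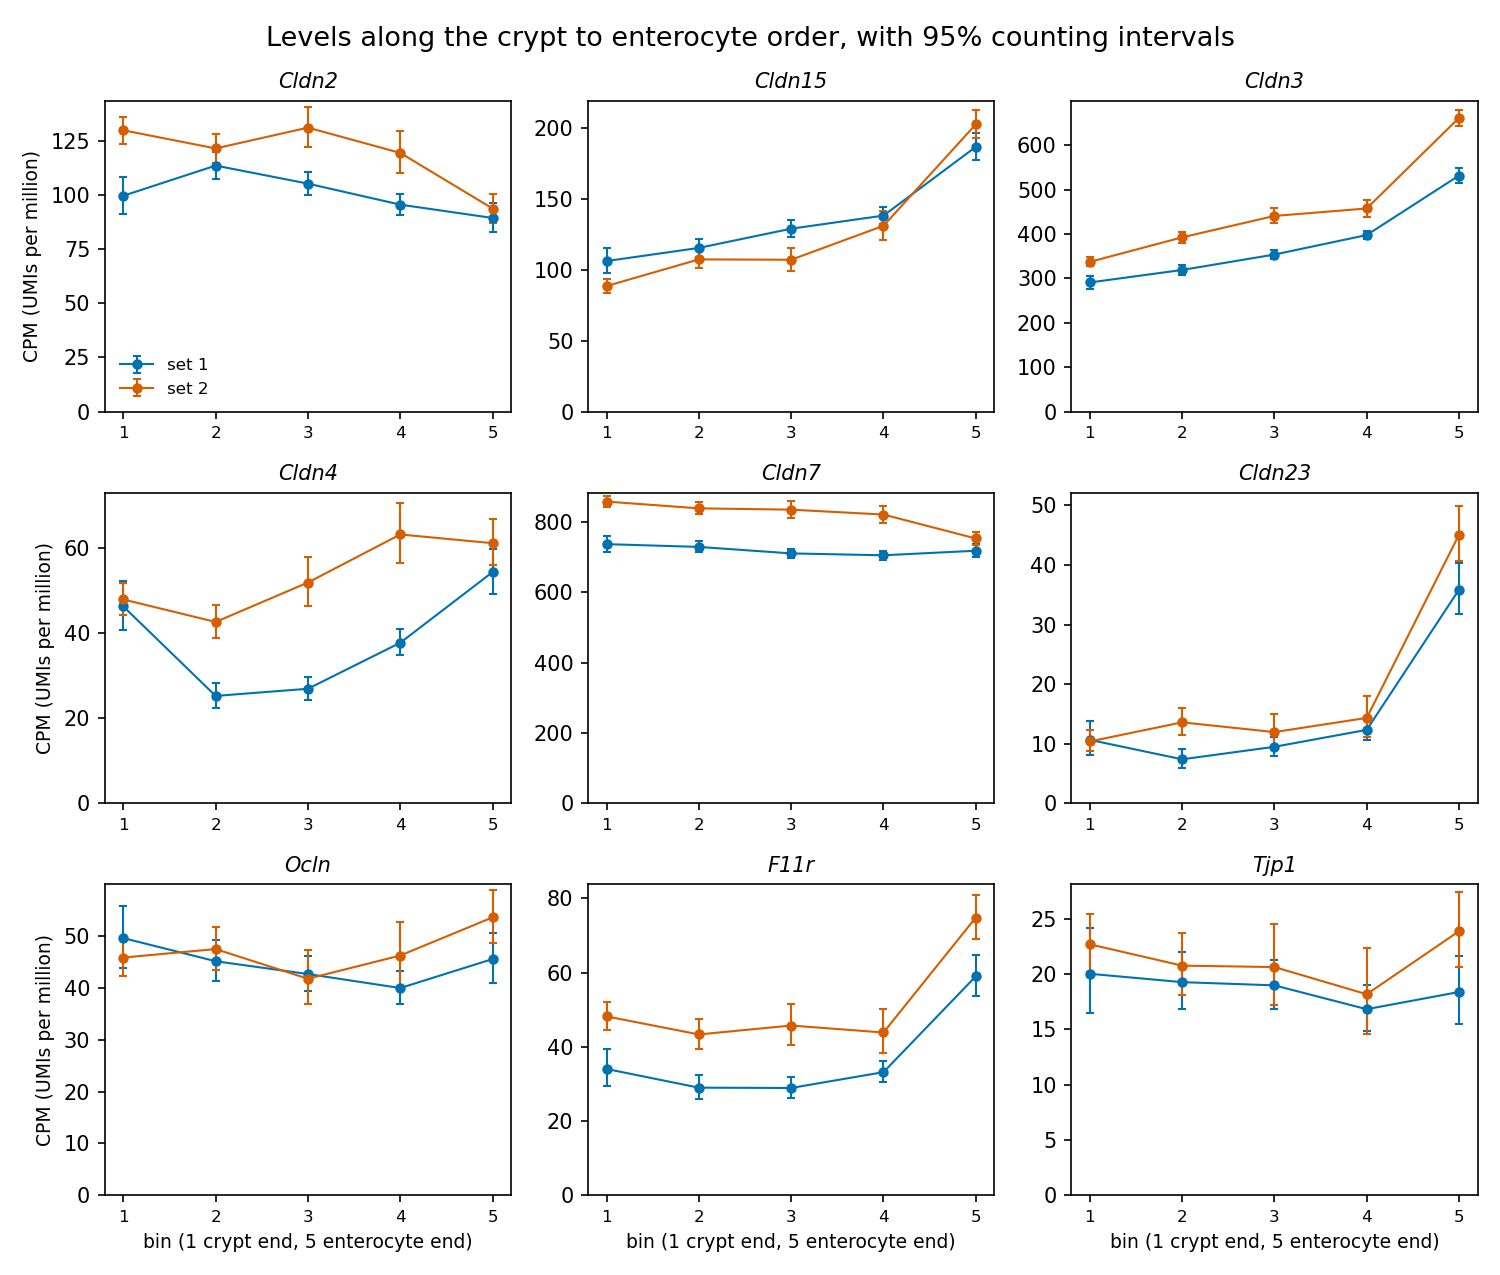
Level of each of the 9 genes (y axis, CPM from 0, its own scale in each panel) in 5 bins of cells ordered from the crypt end (1) to the enterocyte end (5) in set 1 (blue) and set 2 (orange) with 95% Poisson counting intervals. Cldn3 is higher in each bin than in the one before, Cldn23 and F11r are higher in bin 5 than in every bin before it, and Cldn2 and Cldn7 are lower in bin 5 than in bin 1 of set 2.

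Between the sets, 0 of the 9 genes passed 1.5-fold. Of the 7344 genes, 2.27% were at least 1.5-fold higher in set 2 and 0.871% were lower. Over all kept cells Cldn4 was at 57.3 CPM (55.5 to 59.3) in set 1 against 86.0 CPM (83.4 to 88.5) in set 2, a log2 ratio of 0.58, and F11r was at 39.6 CPM (38.0 to 41.2) and 58.7 CPM (56.6 to 60.8), a log2 ratio of 0.56. In set 2, 3 cells held 8.51% of the Cldn4 UMIs and 3 cells held 4.3% of the F11r UMIs, against 2.12% and 1.31% in set 1. Both genes lay just inside the 1.5-fold line, and their counting intervals did not overlap. With a mitochondrial limit of 10% both passed it, at 0.65 and 0.60, and among cells with at least 10000 UMIs Cldn4 did, at 0.59. Cldn23 followed with 14.6 and 19.996 CPM and a log2 ratio of 0.43. Cldn15 was the 1 gene lower in set 2, with 125 CPM (122 to 128) and 107 CPM (105 to 110.3) and a log2 ratio of -0.22. Cldn2 was at 95.6 and 113 CPM, Cldn3 at 377 and 439 CPM, Cldn7 at 711 and 818 CPM, Ocln at 47.7 and 53.3 CPM, and Tjp1 at 20.6 and 24.3 CPM. The median log2 ratio was 0.23 over the 9 genes and 0.05 over all genes.

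The sets differed in their class make-up, and the ratio of Cldn4 between the sets differed by class. Enteroendocrine-like cells were 10.8% of set 1 and 14.8% of set 2, revival-like cells 0.957% and 2.77%, and proliferating-like cells 50.6% and 32.6%. As shares of all UMIs these classes held 5.85% and 7.98%, 0.792% and 4.20%, and 62.3% and 39.9%. The class levels of set 2 were then weighted by the UMI shares of the classes in set 1, not by cell shares. On these weights the log2 ratio was 0.20 for Cldn4, 0.37 for F11r, 0.18 for Cldn23, -0.23 for Cldn15 and 0.22 for Cldn7. Within proliferating-like cells the ratios were 0.49 for Cldn4, 0.49 for F11r and 0.25 for Cldn7. Within enteroendocrine-like cells they were -0.17 for Cldn4, 0.05 for F11r and 0.63 for Cldn23. CPM averaged over cells, in which deep cells weigh no more than shallow ones, gave 0.36 for Cldn4.

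Of 17 further claudin genes in the matrix, 3 reached 1 CPM in a set, 10 had at least 1 UMI below that level, and 4 had 0 UMIs in all kept cells, where 3 counts would be 0.0487 CPM (set 1) or 0.0587 CPM (set 2), the limit this sets. Cldn12 had 9.14 CPM in set 1 and 10.8 CPM in set 2 over all cells, and in enteroendocrine-like cells 28.0 and 26.2 CPM, which on CPM plus 1 was 3.24-fold and 2.60-fold the level in all other cells. Cldn1 had 0.746 and 1.35 CPM over all cells and 6.94 and 11.3 CPM in enteroendocrine-like cells, 5.83-fold and 8.24-fold on the same scale, from 25 and 46 UMIs there. Cldn8 had 2.97 and 2.80 CPM, and in enteroendocrine-like cells 0.278 and 0.245 CPM, from 1 UMI in each set. That is below the level of 3 counts there, 0.833 and 0.735 CPM.

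Genes of related junctions were counted by the same rule. Of 24 further tight junction genes, 18 reached 10 CPM. In enteroendocrine-like cells 2 of these were at least 2-fold higher in both sets, the polarity gene Pard3 (90.8 and 61.0 CPM) and Marveld2, which encodes tricellulin (24.4 and 30.4 CPM), and 1 was lower, Ybx3, which encodes a nucleic acid-binding protein found at tight junctions (120.2 and 98.1 CPM). As shares of the 18 these were below the 17.2% of all genes higher and the 11.1% lower there. Ybx3 was also lower in enterocyte-like cells, at 136 and 98.6 CPM, where 11% of all genes were. In revival-like cells Crb3, a polarity gene of the apical membrane, had 111 and 124 CPM and Cxadr, a junctional adhesion receptor gene, 246 and 168 CPM, and both were past 2-fold in both sets, against 2.25% of all genes. In proliferating-like, stem-like and goblet or Paneth-like cells 0 of the 18 were past 2-fold, where at most 4.19% of all genes were in either direction. Between the sets 1 of the 18 passed 1.5-fold, Pard6b, with 14.6 and 25.8 CPM, against 2.27% of all genes.

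Of 10 adherens junction genes, all at 10 CPM or more, 2 were at least 2-fold higher in enteroendocrine-like cells, the adhesion gene Nectin1 (61.9 and 51.0 CPM) and Vcl, which encodes vinculin (68.8 and 70.6 CPM), a share close to the 17.2% of all genes. In the other classes 0 of the 10 were past 2-fold, where 0.0545% to 11% of all genes were by class and direction. With so few genes this 0 is not a result about the list. Of 8 desmosome genes 6 reached 10 CPM, and of 5 genes known to act on claudin stability, among them Epcam, 4 did. In no class was any of either list past 2-fold in both sets, and the share of all genes past it ran from 0.0545% to 17.2% by class and direction, so 0 of so few genes is not a result about these lists. The median log2 ratio of the 6 desmosome genes was -0.22 and -0.53 in enteroendocrine-like cells and 1.02 and 0.61 in revival-like cells. Of 11 epithelial transcription factor genes, 1 was at least 2-fold higher in enterocyte-like cells, Hnf4g (59.5 and 69.0 CPM), where 5.49% of all genes were. Klf4 was the 1 higher in enteroendocrine-like cells (153.8 and 128 CPM), against 17.2% of all genes, and in goblet or Paneth-like cells (227 and 269.7 CPM), against 1.1%. Vdr, the vitamin D receptor gene, was the 1 at least 2-fold lower in revival-like cells (14.3 and 24.7 CPM), against 3.15%.

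The genes with profiles most like each of the 9 were found by Pearson's r of log2 CPM over 14 profiles, which were the 6 classes and the ungated cells in each set. These share libraries and cells, so r is a description. Nearest to Cldn4 were Ly6a (0.96), Sqstm1 (0.95) and Bok (0.95), and Ly6a was among the markers that defined revival-like cells. Among the nearest to Cldn15 were Agmat (0.95) and Cd302 (0.95), and nearest to Cldn2 were Mpzl2 (0.96), Eif1ad (0.96) and Zfp706 (0.95). Nearest to Cldn3 were Lgals3 (0.97), Areg (0.96) and Phgr1 (0.95), to Cldn7 Tyw1 (0.94), Cdc34 (0.93) and Sdc1 (0.92), and among the nearest to Cldn23 were Acaa1a (0.95) and Ctsz (0.94). Nearest to Ocln were Ssfa2 (0.97), Fat1 (0.96) and Washc5 (0.95), to F11r Myl6 (0.96), Cstb (0.96) and Cltb (0.96), and to Tjp1 Gtf2f1 (0.96), Cab39 (0.94) and Ralgapb (0.94). Among the 9 themselves, Cldn4 had r = 0.88 with Ocln, 0.83 with Tjp1 and 0.80 with F11r, and Cldn15 had r = -0.87 with Cldn4, -0.89 with Ocln and -0.82 with Tjp1. Cldn2 and Cldn7 had r = 0.85.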

How the data were processed

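The deposited values are UMI counts per gene and barcode, whole numbers with no normalization. Cell Ranger 3.1.0, bcl2fastq 2.20.0 and STAR 2.7.3a are named in the submitters' processing notes, with no role for each, and the genome build and annotation are not given in the sources used here. The genes and lists were chosen with earlier results of these data known, and the named genes were all 9 members, list genes past a fold and the 3 nearest profiles. Some genes that this rule or the gauge of free RNA would name are not reported here. Gate thresholds were set after the data were seen. They were summed marker UMIs per 10000 of at least 50 (enteroendocrine, goblet), 100 (Paneth, enterocyte), 10 (stem, proliferating) or 5 (revival, tuft, immune, mesenchymal), with at least 2 markers detected. Cells passing 1 of the enteroendocrine, goblet or Paneth, revival and enterocyte gates took that class, and others were called stem-like, then proliferating-like. Fold calls between classes had to hold in both sets. Within enteroendocrine-like cells the thresholds were 2 (Neurog3), 5 (Tph1) and 500 (peptide hormones) per 10000. Doublets were not removed, and an alternative left out the top 5% of Scrublet scores. Log2 ratios used a pseudocount of 1 CPM, which understates changes of low genes. Thinned shares are hypergeometric expectations with Clopper-Pearson intervals, and cells under 2000 UMIs were left out. Python 3.11.15, numpy 2.4.6, scipy 1.17.1 and scanpy 1.11.5 were used, and the computations were tested on simulated data. Alternatives changed the mitochondrial limit, gates, clusters (Leiden), pseudocount, scaling, bins and depth.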

Additional observations from a re-analysis of the deposited data

Results flagged for a closer look

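Barcodes over the mitochondrial limit were left out of every comparison, yet they held the junction genes. The 6110 such barcodes of set 1 that met the other limits had 1993 summed UMIs of the 9 genes per 1000000 non-mitochondrial UMIs, and the 3671 of set 2 had 2132. The kept cells had 1650 and 1905 on the same scale, at medians of 29872 and 28759 UMIs against 4558 and 5120 in the barcodes left out. By gene, Tjp1 had 34.2 and 47.2 in the barcodes left out against 22.9 and 26.9 in kept cells, and Cldn15 had 161 and 138 against 139 and 119.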

How the results depend on the processing

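Of 97 counts of junction genes under the alternatives, 83 stayed within 1.5 times the main count and 14 moved. In enteroendocrine-like cells Cldn4 was called higher and Cldn2 and Cldn15 lower under each of the 13 alternatives run there, and Ocln was called higher in all but that with a pseudocount of 10 CPM, where its log2 ratios were 0.94 and 0.93. With no mitochondrial limit there were 2 calls in enterocyte-like and 1 in goblet or Paneth-like cells. With a limit of 10% there were 2 between the sets, 1 in stem-like cells and 0 between the ends of the crypt to enterocyte order. With CPM averaged over cells there were 1 in stem-like cells, 2 in enterocyte-like cells and 0 between the ends. Lower gate thresholds gave 0 in proliferating-like, 2 in stem-like and 1 in revival-like cells, and Leiden clusters 0 in proliferating-like and 2 in enterocyte-like cells, where the log2 ratio of Cldn4 in proliferating-like cells of set 1 turned to 0.086. Cells with at least 10000 UMIs, an alternative chosen after seeing the data like the 2 that left out cells of 2 or more gates or took proliferating-like cells as the reference, gave 1 between the sets. The causes were not tested. Shares of enteroendocrine-like cells with a UMI depend on depth by construction: for Cldn4 they were 63.3% and 60.3% at 5000 UMIs and 82.3% and 78.9% without thinning, and for Cldn15 6.31% and 4.81%, and 15.7% and 13.8%. No paired analysis was possible because each set is a single pool. The goblet or Paneth-like and revival-like classes had only 15 to 49 cells per set.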
